A study of Mus musculus with 16 samples.

Results

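Interferon response and antigen presentation genes were followed as 40 named genes in 16 messenger RNA libraries of mouse mammary tumour cells. The members were taken by name: each row of the deposited count table whose Entrez ID belongs to one of the 40 symbols. Of the 40, 39 had a row among the 19665 rows of the table, 30 of them interferon-stimulated genes and 9 genes of the major histocompatibility complex (MHC) class I pathway. Rnf213 was not analysed here. Of the 39, 32 passed the count filter used for testing (24 interferon-stimulated and 8 class I genes), as did 13172 genes in all.

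Both cell lines came from mammary tumours of FVB/N mice with the MMTV-PyMT transgene, in which a viral promoter active in mammary epithelium drives the polyoma middle T oncogene. Line 631 has Pygo2 +/+ (WT), and line 828 carries the A342E knock-in on both Pygo2 alleles (AE). Each line was left untreated or given TGFb at 2 ng/ml for 4 days, and left untreated or given Wnt3a at 100 ng/ml for 3 days, which makes 8 groups of 2 libraries, duplicates described as biological by the submitters. Each genotype is represented by 1 line, so genotype and line cannot be told apart, and the p-values measure the spread between these libraries. No group was given an interferon.

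Interferons are secreted proteins whose receptors signal through Janus kinases to STAT proteins. After type I interferon, a complex that holds STAT2 and IRF9 binds an interferon-stimulated response element (ISRE) and switches on antiviral genes, while interferon gamma acts through a different element (GAS). Class I presentation uses the same signals: immunoproteasome subunits cut proteins into peptides, TAP1 and TAP2 carry the peptides into the endoplasmic reticulum, tapasin loads them, and the class I heavy chain displays them together with beta-2 microglobulin. Tumour cells that lose class I presentation are less visible to cytotoxic T cells.

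The promoters of both sets were read from RefSeq's table for the GRCm38.p6 build, 250 bases before to 50 bases after each start site, which held 30 of the 40 members (23 interferon-stimulated and 7 class I genes). The ISRE core, GAAA then any 2 bases then GAAA, was searched on both strands with overlaps allowed. A gene counted if any of its promoter windows held a match. The core occurred in 11 of 23 interferon-stimulated genes (47.8%), in 1 of 7 class I genes (14.3%) and in 3.99% of the 27025 genes of the table. The GAS motif TTCNNNGAA, which reads the same on both strands, occurred in 5 of 23 (21.7%), 1 of 7 (14.3%) and 9.55%. A match is a run of letters, not a measured binding site. The stretches shown are the 150 bases before the start of 3 genes that hold an ISRE core, written in capitals, and the whole stretch between the start sites of Psmb9 and Tap1, which holds none. They are shown because Isg15 and Ifit1 were lower in AE, B2m was the class I gene with a core, and Psmb9 and Tap1 start at either end of 1 shared stretch.
Isg15, chr4:156200819-156200968, minus strand: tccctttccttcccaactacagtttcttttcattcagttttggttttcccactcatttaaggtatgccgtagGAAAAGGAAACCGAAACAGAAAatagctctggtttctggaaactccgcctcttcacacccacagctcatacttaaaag
Ifit1, chr19:34640739-34640888, plus strand: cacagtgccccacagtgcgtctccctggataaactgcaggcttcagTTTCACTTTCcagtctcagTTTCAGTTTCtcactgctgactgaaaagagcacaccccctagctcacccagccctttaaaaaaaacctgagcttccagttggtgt
B2m, chr2:122147537-122147686, plus strand: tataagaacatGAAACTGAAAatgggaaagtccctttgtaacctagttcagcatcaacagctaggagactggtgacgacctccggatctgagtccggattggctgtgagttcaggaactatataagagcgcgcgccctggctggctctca
Psmb9-Tap1, chr17:34187331-34187555, plus strand: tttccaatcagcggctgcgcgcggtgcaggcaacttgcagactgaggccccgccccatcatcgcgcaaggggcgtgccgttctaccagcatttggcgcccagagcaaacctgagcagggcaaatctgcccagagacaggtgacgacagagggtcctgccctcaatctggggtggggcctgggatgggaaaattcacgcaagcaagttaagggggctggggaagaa
The capitals of Isg15 are 3 overlapping matches, those of Ifit1 are 2 matches on the other strand, and B2m has 1 match.

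Levels are in CPM, a gene's counts scaled to the library's total with TMM factors, and differences are log2 fold changes with their standard error (SE). Each q is a gene's p-value from edgeR's quasi-likelihood test, adjusted by Benjamini and Hochberg over all 13172 genes, and a gene passed at q under 0.05. Libraries held 20530538 to 26191846 counts. Replicates differed more in the 3-day libraries (SD of the log2 ratio between replicates over all genes 0.371 to 0.81) than in the 4-day libraries (0.176 to 0.354). Within the WT groups the class I genes leaned to replicate 2, by a median log2 ratio of 0.252 to 0.67, with 6 or 7 of the 8 genes higher there, and in untreated 3-day AE cells all 8 leaned to replicate 1 (median -0.538). Over all genes the same ratio ranked with GC content in the WT groups (Spearman's rho 0.647 to 0.755 across 12917 genes of the same libraries). In AE the rho was negative in untreated 3-day cells (-0.644), in untreated 4-day cells (-0.469) and under Wnt3a (-0.233). Under TGFb in AE it was 0.00545. The class I genes had a median GC content of 55.1%, against 49.7% for the interferon-stimulated genes and 49.7% for all genes tested. How far this touches the class I values was not tested beyond leaving out each library and fitting replicate blocks. Epithelial markers, Epcam and keratins among them, summed to 1380 to 3000 CPM, although the keratin Krt19 did not exceed 0.636 CPM. Of 5 tested epithelial markers 2 were lower and 0 higher in untreated AE than in untreated WT by edgeR, against 53.8% of all genes passing. Under TGFb in WT 1 fell, Epcam, from 481 and 491 CPM to 285 and 298 CPM, against 27.6% of all genes passing. Under TGFb in AE and under Wnt3a in either line 0 passed by edgeR. Leukocyte markers summed to 2.75 to 8.53 CPM (7 of 10 listed markers had a row). In untreated AE cells Ptprc, Adgre1 and Itgam were at 0, but Lyz2 had 109 counts, against 0 in untreated WT cells. Cd68 and Fcer1g were detected in untreated cells of both lines. In bulk libraries, fewer cells of a type and less RNA per cell cannot be told apart.

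The members spanned levels from near 0 in the Oas and Mx genes to 469 CPM for B2m. In untreated cells the mean levels of the class I molecules stood above every interferon-stimulated gene per kilobase of exon. In CPM, before scaling to length, Trim25 was at 123 in replicate 1 of untreated 3-day WT cells, above H2-K1 (95.7) and H2-D1 (82.0). Per kilobase of exon, the median level of the 9 class I genes in untreated cells was 2.52 CPM per kb in WT and 5.64 in AE, and that of the 30 interferon-stimulated genes was 0.693 in WT and 0.515 in AE. B2m had the highest level of all members, at 371 CPM per kb in WT and 244 in AE, followed by H2-K1 (92.9 and 85.1) and H2-D1 (69.4 and 61.0). Of the interferon-stimulated genes, Trim25, an E3 ligase that activates RIG-I, was highest in WT at 19.2 CPM per kb. 7 members stayed below the filter: the OAS sensors Oas1a, Oas2 and Oas3, the Mx genes Mx1 and Mx2, the Z-form nucleic acid sensor Zbp1, and Nlrc5, the transactivator of class I genes. RefSeq lists Mx1 and Mx2 as transcribed pseudogenes in GRCm38.p6. None of the 7 exceeded 1.12 CPM in any library, and Oas2 had 8 counts over all 16. Nlrc5 ranged from 0.151 to 1.12 CPM, and its highest values, 0.688 and 1.12, were in WT under TGFb. Of 8 listed interferon genes 4 had a row and the other 4, interferon gamma and lambda genes among them, were not analysed here. Ifnb1, Ifna4 and Ifnk had 0 counts in all 16 libraries, which allows up to 3 counts over a group of 2 libraries, and Ifne did not exceed 0.0491 CPM.

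**Figure D1:**
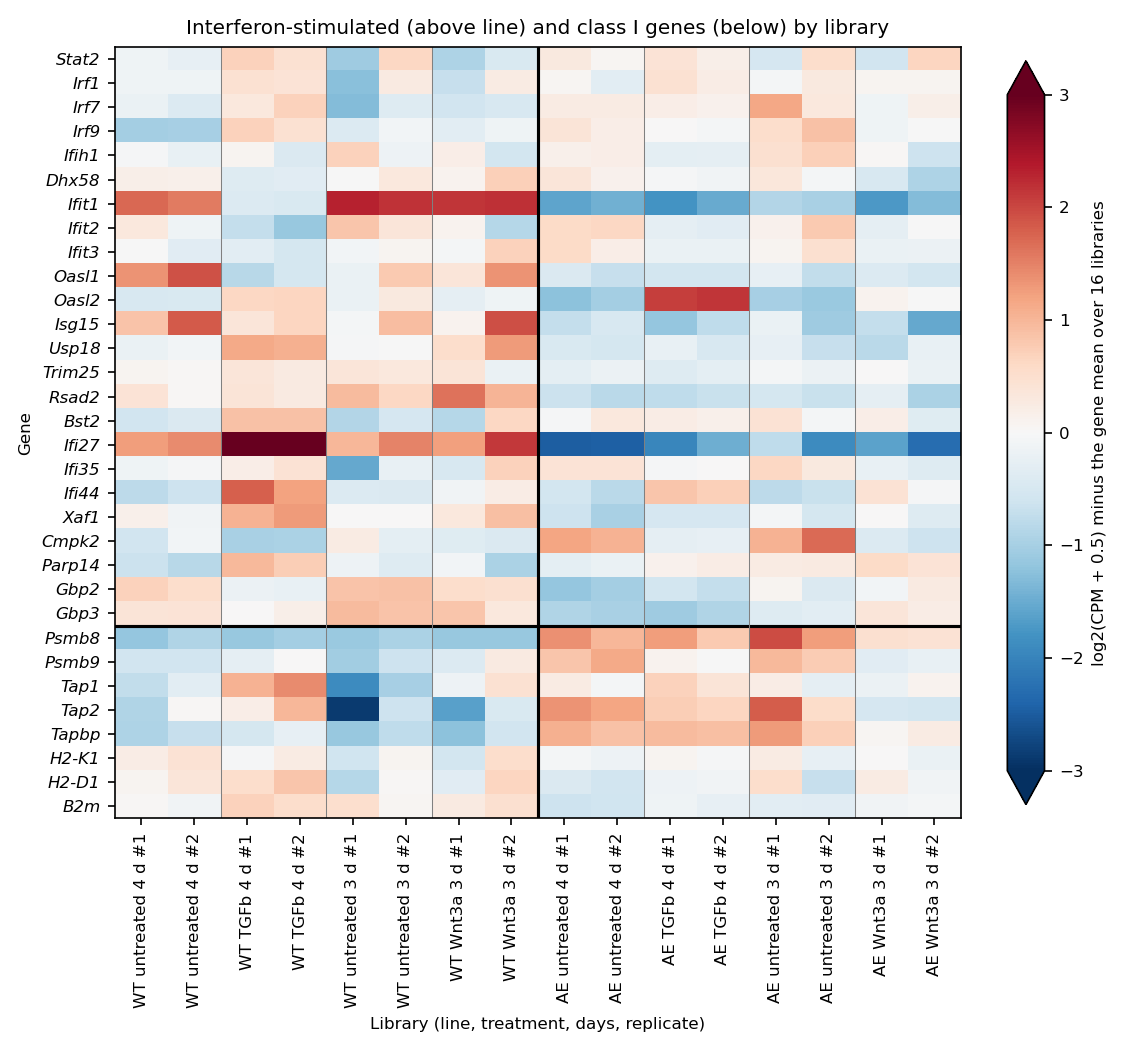
Level of the 32 tested members (rows) in the 16 libraries (columns), as log2(CPM + 0.5) minus the gene's mean over all libraries, with red above and blue below that mean; the black lines part interferon-stimulated from class I genes and WT from AE. Ifi27 was red across WT and blue across AE, and Psmb8 and Tapbp the reverse; Ifit1 was blue across AE and also in the 2 WT libraries under TGFb.

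The first comparison set the untreated AE libraries against the untreated WT libraries (4 per line, both times together) and asks how the members differ between the lines at rest. The peptide-processing part of the class I pathway was higher in AE, the class I heavy chains did not pass the test, and antiviral genes were split. Of 8 class I genes 5 were higher, 1 was lower and 2 did not pass. Of 24 interferon-stimulated genes 6 were higher, 10 were lower and 8 did not pass. These lines differed widely: 53.8% of all genes tested passed, 27.4% higher and 26.4% lower in AE and the members' counts are to be read against that share. The median log2 fold change was 1.46 for the class I genes, -0.17 for the interferon-stimulated genes and 0.01 for all genes tested.

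The immunoproteasome subunits showed the widest gap. Psmb8 (Entrez 16913), the chymotrypsin-like subunit LMP7, was at 0.0382, 0.141, 0.0505 and 0.123 CPM in the WT libraries and at 2.59, 1.89, 4.16 and 2.35 CPM in AE. Every AE library was far above every WT library. The difference was 4.86 ± 0.41 (SE) on the log2 scale (q = 1e-06), from a WT level of a few reads per library. Psmb9 (Entrez 16912), subunit LMP2, was at 0.191, 0.188, 0 and 0.164 CPM in WT and at 1.32, 1.75, 1.5 and 1.24 CPM in AE, also without overlap. Its difference was 3.42 ± 0.48 (q = 7.4e-05). The constitutive proteasome subunits Psmb5, Psmb6 and Psmb7 did not pass in any direction (0 of 3 by edgeR). Psmb10, counted with the other class I presentation genes, was higher in AE (1.46 ± 0.50, q = 0.027), with overlapping libraries.

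The peptide transporter and its loading factor were higher in AE as well. Tapbp (Entrez 21356), which encodes tapasin, was at 71.7, 85.4, 62.0 and 81.0 CPM in WT and at 287, 252, 336 and 226 CPM in AE. Every AE library was above every WT library, with a log2 difference of 1.88 ± 0.19 (q = 4.7e-06). Tap2 (Entrez 21355) was at 3.82, 7.87, 0.606 and 4.76 CPM in WT and at 20.1, 18.0, 28.1 and 11.3 in AE, a difference of 2.28 ± 0.53 (q = 0.003). Tap1 (Entrez 21354) was closer, at 8.29, 11.3, 3.48 and 6.78 CPM in WT and 16.8, 13.5, 16.6 and 11.5 in AE. Its difference of 1.04 ± 0.25 (q = 0.0041) left only a narrow gap between the lines. In the 4-day libraries alone neither transporter gene passed (Tap1 0.63, q = 0.195; Tap2 1.71, q = 0.0893), whereas Psmb8, Psmb9 and Tapbp passed at both times.

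The class I molecules themselves did not follow. H2-K1 (Entrez 14972), a heavy chain, was at 169, 197, 95.7 and 154 CPM in WT and 140, 130, 171 and 122 in AE (log2 difference -0.10 ± 0.23, q = 0.73). H2-D1 (Entrez 14964), the other heavy chain, was at 158, 190, 82.0 and 153 CPM in WT and 109, 99.1, 214 and 91.6 in AE (-0.18 ± 0.29, q = 0.61). The libraries of the lines overlapped for both genes, and both differences turned positive in the 3-day libraries alone (0.23 and 0.38). The 2 heavy chains share sequence, and FVB/N carries another MHC haplotype than the reference genome, so reads may be split between them; their sum was 299.6 ± 88.0 CPM in WT and 269.2 ± 78.5 CPM in AE (SD, n = 4 each). B2m (Entrez 12010), the light chain that both need, was lower in AE: 296, 269, 410 and 299 CPM in WT against 187, 192, 234 and 227 CPM, without overlap (-0.60 ± 0.13, q = 0.0023).

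Psmb9, Tap1, Psmb8 and Tap2 lie in that order within 34.3 kb of chromosome 17 (34182030 to 34216321, GRCm38.p6), in the class II region of the MHC. Tapbp starts at 33919478 and H2-K1 at 33996012 on one side of this block, and H2-D1 starts at 35263094 on the other. H2-K1 thus lies between Tapbp and the block, and these 5 genes were higher in AE while H2-K1 did not pass. B2m is on chromosome 2.

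**Figure D2:**
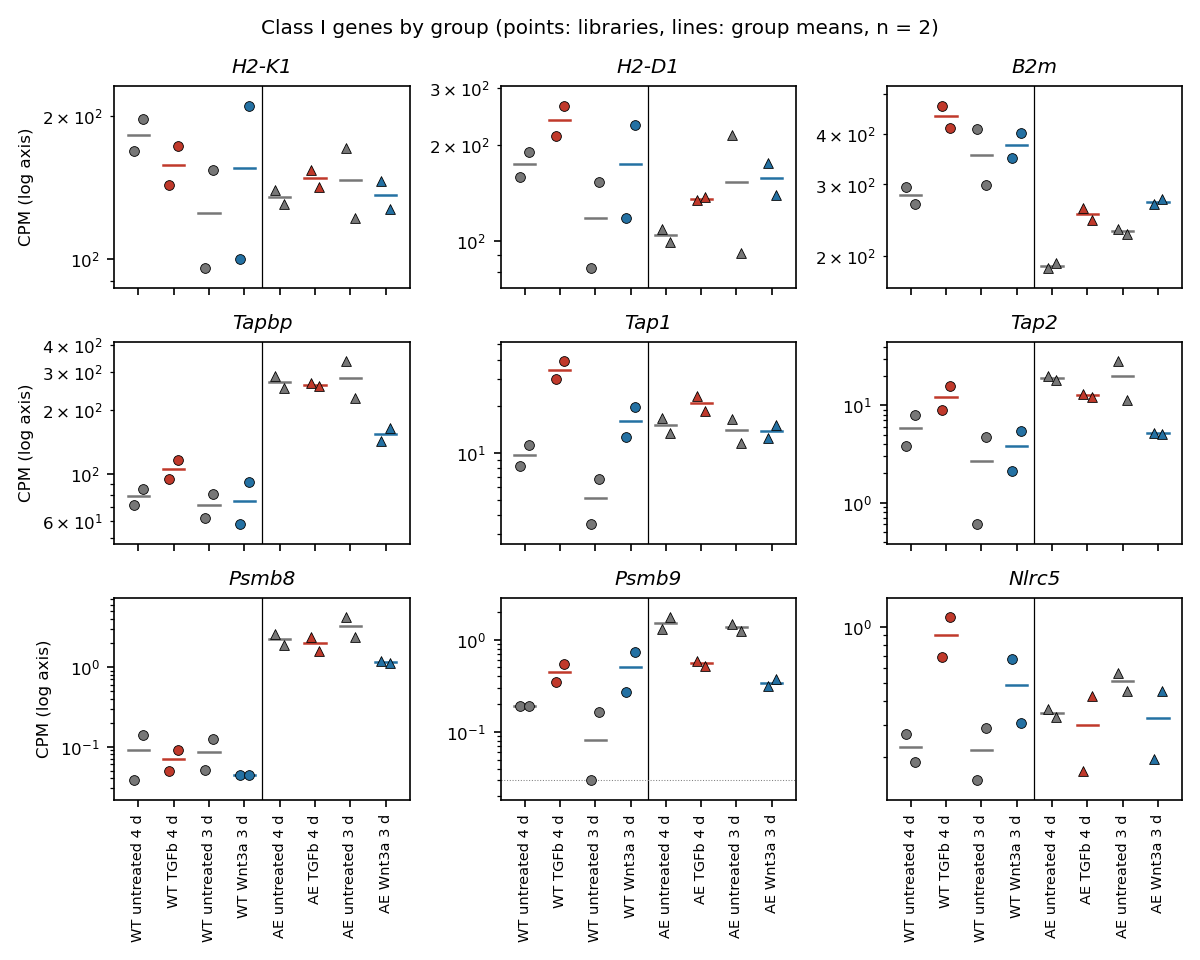
CPM (log axis) of the 9 class I genes in each of the 8 groups; points are libraries (circles WT, triangles AE; grey untreated, red TGFb, blue Wnt3a), short lines are means of 2 libraries, and a value of 0 (Psmb9 in 1 untreated WT library) is drawn on the dotted line. Psmb8, Psmb9, Tap2 and Tapbp of untreated cells stand higher in AE, and the H2-K1 and H2-D1 points of both lines overlap.

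Among the interferon-stimulated genes 2 of 4 transcription factors were higher in AE, and several antiviral genes were lower. Irf9, the DNA-binding part of the STAT complex, was at 6.61, 6.74, 10.3 and 13.1 CPM in WT and 18.2, 16.2, 20.4 and 25.9 in AE (1.18 ± 0.16, q = 6e-05). Irf7, a factor that amplifies interferon production, was at 0.917, 0.707, 0.151 and 0.739 CPM in WT and 1.41, 1.42, 3.11 and 1.53 in AE (1.56 ± 0.38, q = 0.0043). Both were higher in every AE library, although Irf7 did not pass in the 4-day libraries alone (0.79, q = 0.28). Stat2 (0.24 ± 0.38, q = 0.61) and Irf1 (0.22 ± 0.30, q = 0.54) did not pass, with overlapping libraries. The other genes higher in AE were Cmpk2, a mitochondrial nucleotide kinase (1.82 ± 0.28, q = 0.00014), Bst2, the tetherin of budding virus (0.97 ± 0.36, q = 0.037), Ifi35 (0.87 ± 0.30, q = 0.026) and Parp14 (0.53 ± 0.19, q = 0.037). Of these, Bst2, Ifi35 and Parp14 lost their call when any of 6, 6 and 7 of the 8 untreated libraries, respectively, was left out.

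Ifit1 (Entrez 15957), whose protein binds viral RNA that lacks a cap methyl group, was at 6.19, 5.51, 9.54 and 8.71 CPM in WT and 0.182, 0.254, 0.607 and 0.536 CPM in AE. The groups did not overlap, and the difference was -4.34 ± 0.29 (q = 1.5e-07). Its relatives did not share it: Ifit2 was at 39.7 to 78.4 CPM in WT and 48.0 to 76.1 CPM in AE (0.19 ± 0.23, q = 0.50), and Ifit3, whose reads may be split with a near-identical copy, gave 0.68 ± 0.32 (q = 0.096). Ifi27 (Entrez 52668), a small membrane protein, was at 14.0, 15.6, 11.7 and 16.7 CPM in WT and 0.591, 0.618, 3.07 and 1.15 CPM in AE (-3.67 ± 0.36, q = 3.7e-06). Isg15, the ubiquitin-like modifier, was at 3.40, 7.26, 1.57 and 3.57 CPM in WT and 0.818, 1.05, 1.37 and 0.536 CPM in AE. The lowest WT library was close to the highest AE library, and the call (-1.96 ± 0.53, q = 0.0077) was lost in the 3-day libraries alone (-1.43, q = 0.138). Also lower in AE were Oasl1 (-2.92 ± 0.55), which did not pass in the 3-day libraries alone (-1.92, q = 0.0648), Rsad2, the antiviral enzyme viperin (-2.34 ± 0.42), the GTPases Gbp3 (-1.74 ± 0.22) and Gbp2 (-1.44 ± 0.18), Oasl2 (-1.23 ± 0.22), Xaf1 (-1.24 ± 0.38) and Trim25 (-0.38 ± 0.14). Xaf1 overlapped between the lines, as did Parp14 among the genes higher in AE, and the Xaf1 call was lost without replicate 1 of untreated 4-day WT or replicate 2 of untreated 4-day AE cells. The call of Trim25 was lost without any of 7 of the 8 libraries.

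Of the 10 tested members whose promoter window held a core, 1 was higher in AE (Bst2), 6 were lower and 3 did not pass, whereas of the 17 tested members without a core 8 were higher, 4 were lower and 5 did not pass. Psmb8, Psmb9, Tap1 and Tapbp, which lie near each other on chromosome 17, were 4 of the 8. Under TGFb in WT, 2 members with a core rose, 2 fell and 6 did not pass, against 5, 2 and 10 without one. Of all genes tested 53.8% passed between the untreated lines (27.4% higher and 26.4% lower in AE). Under TGFb in WT 27.6% passed (14.7% up, 12.9% down). Under TGFb in AE and under Wnt3a in either line 0 of the 10 with a core passed by edgeR. Of the 17 without one, 2 rose and 1 fell under TGFb in AE. Under Wnt3a 1 rose in WT, and 2 rose and 3 fell in AE. These are counts with no test, and the share passing among all genes with a core was not counted.

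**Figure D3:**
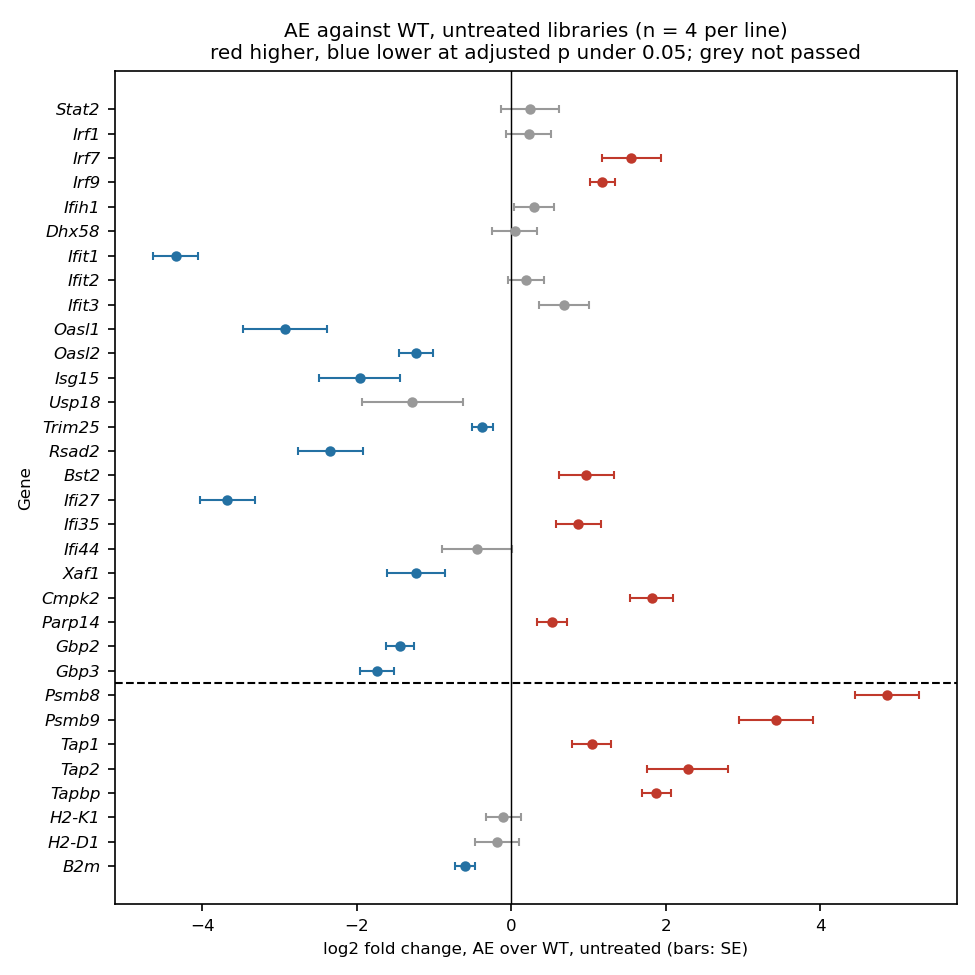
Log2 fold change of AE over WT in untreated cells (x axis, bars are SE, 4 libraries per line) for the 32 tested members; red and blue passed higher and lower, grey did not pass. Psmb8 at 4.86 and Ifit1 at -4.34 stand at the ends, and H2-K1 and H2-D1 lie near 0.

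The other genes of the pathway differed between the untreated lines in both directions too. Their counts are to be read against the 53.8% of all genes tested that passed (27.4% higher and 26.4% lower in AE). Of 6 interferon receptor chains 2 were higher in AE: Ifnar2, a chain of the type I receptor (0.97 ± 0.17), and Ifngr2, a chain of the interferon gamma receptor (0.45 ± 0.11). Of 5 kinases and STATs 2 were higher, Jak2 (1.32 ± 0.24) and Stat3 (0.86 ± 0.16). Of 5 feedback inhibitors Socs1 was higher (1.21 ± 0.42) and Irf2 lower (-0.45 ± 0.18), the latter with overlapping libraries. Of 10 sensing genes 2 were higher and 4 lower. Mb21d1, which encodes the cytosolic DNA sensor cGAS, was at 27.9, 24.5, 52.9 and 27.5 CPM in WT and at 0.591, 1.16, 1.29 and 0.701 CPM in AE (-5.10 ± 0.36, q = 2.4e-07). The groups were far apart, with every AE library at or below 1.29 CPM. The sensor gene Ifi204 lay on the same side, with means of 32.4 CPM in WT and 1.06 CPM in AE (-4.96 ± 0.32, q = 1.2e-07), although reads of its gene family may be split among copies. Of 25 other interferon-stimulated genes tested 9 were higher and 6 lower, and of 9 other class I presentation genes 4 were higher, among them H2-T23, a non-classical class I molecule (1.42 ± 0.40), and 1 lower, the chaperone Canx (-0.64 ± 0.22). Of 5 tested MHC class II genes 4 were higher, with Ciita, the class II transactivator, at 0.508 CPM in WT and 3.10 in AE (2.60 ± 0.52). Fibroblast markers moved with this comparison: they summed to 12.5 to 18.8 CPM in untreated WT and 254 to 521 CPM in untreated AE libraries, 5 of 6 tested markers were higher in AE, and Lum was at 0 in both. Their part in the differences was not tested.

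TGFb in WT cells was set against the untreated cells of the same 4 days. TGFb raised some members and lowered others. Of 24 interferon-stimulated genes 8 rose, 4 fell and 12 did not pass, and of 8 class I genes 2 rose and 6 did not pass. Of all genes tested 27.6% passed, 14.7% up and 12.9% down. The median log2 fold change was 0.34 for the interferon-stimulated genes, 0.55 for the class I genes and 0.06 for all genes.

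Ifi44 (Entrez 99899), an interferon-induced cytoplasmic protein, gave the widest rise among the members, from 0.115 and 0.188 CPM to 3.19 and 1.97 CPM (4.07 ± 0.51, q = 9.7e-05). Irf9 (Entrez 16391) went from 6.61 and 6.74 CPM to 22.8 and 19.3 CPM (1.65 ± 0.23, q = 0.00021). Parp14, an ADP-ribosyl transferase, went from 10.1 and 8.81 CPM to 32.2 and 27.4 CPM (1.66 ± 0.28, q = 0.00088). In each of the 3 the treated libraries stood above the untreated ones with a wide gap. The other rises were Ifi27 (1.88 ± 0.45), Usp18, the enzyme that removes ISG15 (2.20 ± 0.73), Bst2 (1.65 ± 0.50), Xaf1 (1.57 ± 0.45) and Oasl2 (1.35 ± 0.29). Of the class I genes Tap1 rose from 8.29 and 11.3 CPM to 29.8 and 38.9 CPM (1.81 ± 0.36, q = 0.0025). B2m rose from 296 and 269 CPM to 469 and 414 CPM (0.64 ± 0.19, q = 0.023).

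The falls were led by Oasl1, a member of the OAS-like family that restrains Irf7 translation, from 1.99 and 3.16 CPM to 0.0491 and 0.179 CPM (-4.40 ± 0.82, q = 0.0017). Ifit1 fell from 6.19 and 5.51 CPM to 1.03 and 0.987 CPM (-2.53 ± 0.37, q = 0.00029). Ifit2 (-1.02 ± 0.33) and Gbp2 (-0.85 ± 0.25) fell by less. The paralogs Oasl1 and Oasl2 thus went opposite ways in the same libraries. Isg15 was at 3.40 and 7.26 CPM untreated and at 2.26 and 2.87 CPM treated (-1.05 ± 0.70, q = 0.31). Stat2 (0.80 ± 0.54, q = 0.31), Irf1 (0.57 ± 0.42, q = 0.36) and Irf7 (1.15 ± 0.52, q = 0.13) did not pass, nor did H2-K1 (-0.21 ± 0.32, q = 0.69) and H2-D1 (0.46 ± 0.41, q = 0.45).

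The counts depended on the libraries in the model. Leaving out any of the 4 libraries compared left 6 or 7 interferon-stimulated genes and 1 class I gene; Irf9, Parp14, Ifi44, Oasl2, Oasl1, Ifit1 and Tap1 passed each time, whereas Usp18, Bst2, Xaf1, Ifit2, Gbp2 and B2m were lost each time and Ifi27 without either untreated library. With the 8 libraries of the 4-day experiment alone, whose replicates were closer, 20 interferon-stimulated genes (13 up, 7 down) and 5 class I genes (all up) passed, against 55.9% of all genes; H2-D1 (0.46 ± 0.13, q = 0.012), Tap2, Tapbp, Stat2, Irf1 and Irf7 then joined the rises and Isg15 the falls.

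**Figure D4:**
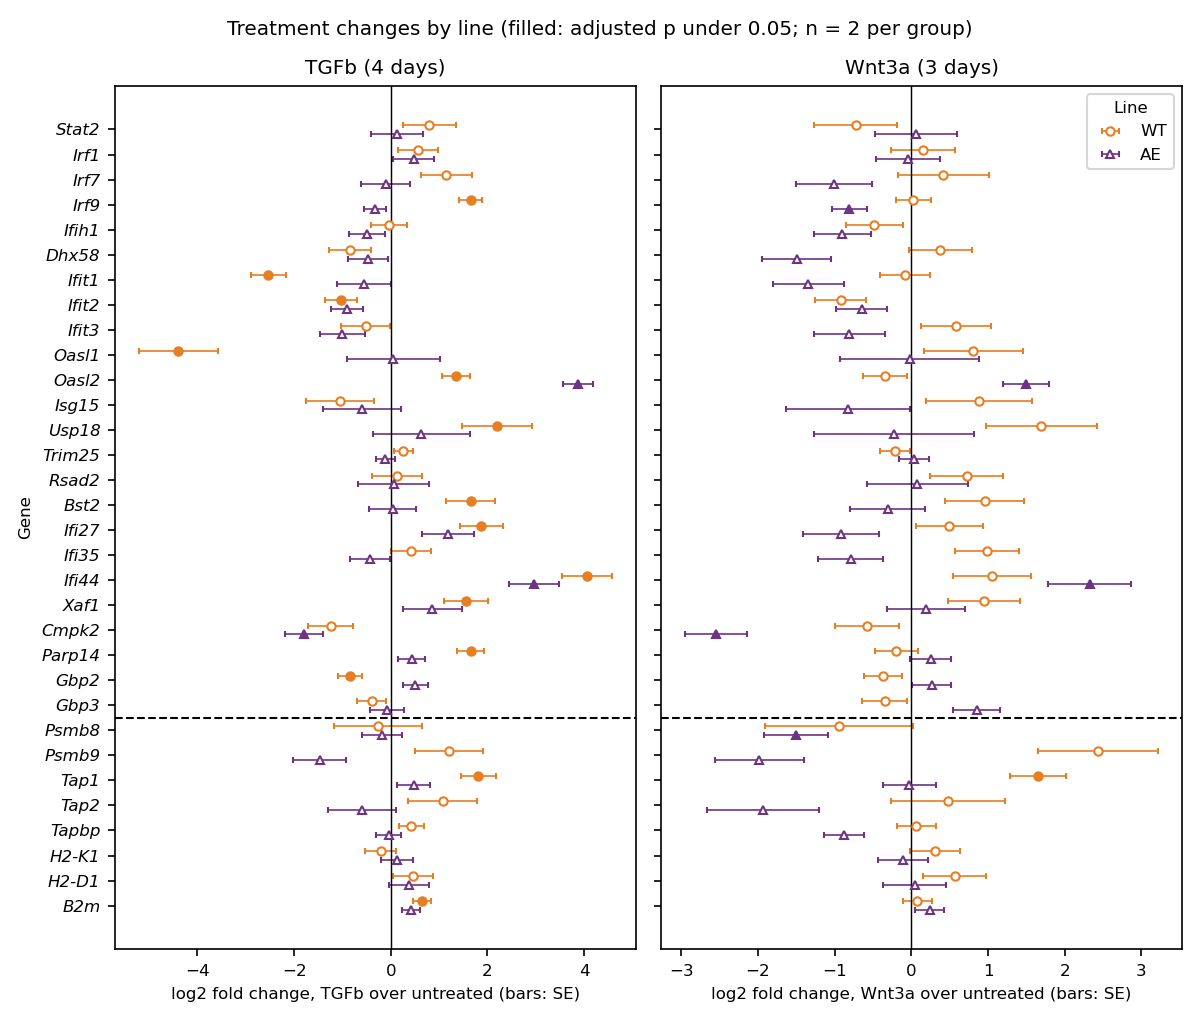
Log2 fold change (x axes, bars are SE, 2 libraries per group) of the 32 tested members under TGFb (left) and Wnt3a (right) in WT (orange circles) and AE (purple triangles); filled symbols passed. Oasl2 under TGFb stands at 3.88 in AE and 1.35 in WT, Ifit1 at -2.53 in WT, and few symbols are filled under Wnt3a.

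In AE cells fewer members passed under TGFb. Of 24 interferon-stimulated genes 2 rose, 1 fell and 21 did not pass, and none of the 8 class I genes passed by edgeR (2 at an unadjusted p under 0.05; 0 by DESeq2 and 1 by limma). Of all genes tested 10.4% passed, 6.09% up and 4.32% down, and the medians were -0.02, 0.04 and -0.00 for the interferon-stimulated, class I and all genes. Oasl2 (Entrez 23962) rose from 0.682 and 0.873 CPM to 11.3 and 11.8 CPM (3.88 ± 0.31, q = 3.7e-05). Ifi44 rose from 0.227 and 0.109 CPM to 1.40 and 1.24 CPM (2.97 ± 0.51, q = 0.0036). Cmpk2 fell from 3.27 and 2.94 CPM to 0.890 and 0.896 CPM (-1.79 ± 0.39, q = 0.013). The replicates of these 3 genes lay close together and the groups did not overlap. The Cmpk2 call was lost without any of the 4 libraries and the Ifi44 call without replicate 2 of untreated cells. Irf9 was at 18.2 and 16.2 CPM untreated and 14.1 and 13.3 CPM treated (-0.33 ± 0.22, q = 0.48), and Isg15 (-0.60 ± 0.81, q = 0.77), Stat2 (0.13 ± 0.54, q = 0.94), Irf1 (0.47 ± 0.42, q = 0.62) and Irf7 (-0.10 ± 0.51, q = 0.95) did not pass. B2m gave 0.42 ± 0.19 (q = 0.21), H2-D1 0.38 ± 0.41 (q = 0.70) and H2-K1 0.13 ± 0.32 (q = 0.89). With the 4-day libraries alone 7 interferon-stimulated and 3 class I genes passed (35% of all genes): B2m (0.41 ± 0.11, q = 0.016) and H2-D1 (0.37 ± 0.13, q = 0.049) rose and Psmb9 fell (-1.48 ± 0.31, q = 0.0064).

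The difference between the lines in the TGFb change, AE minus WT, was tested in the same model and shares its libraries with both single comparisons. It passed for 3 of 24 interferon-stimulated genes and for 0 of 8 class I genes by edgeR (2 at an unadjusted p under 0.05; 0 by DESeq2 and 1 by limma), against 8.83% of all genes (5.04% higher, 3.79% lower). Irf9 differed by -1.98 ± 0.32 (q = 0.0022), with a rise in WT and no passing change in AE. Oasl2 differed by 2.53 ± 0.41 (q = 0.0023) and Gbp2 by 1.35 ± 0.36 (q = 0.036). Gbp2 went from 14.6 and 12.9 CPM to 7.76 and 7.49 CPM in WT and from 3.64 and 4.11 CPM to 5.85 and 5.16 CPM in AE, and its difference was lost when any of the 8 libraries was left out. For Tap1 the difference was -1.34 ± 0.50 (q = 0.13) and for Psmb9 -2.67 ± 0.89 (q = 0.094). With the 4-day libraries alone 8 interferon-stimulated genes passed, and so did Psmb9 (-2.69 ± 0.58, q = 0.0085), Tap2 (-1.69 ± 0.47, q = 0.024) and Tap1 (-1.36 ± 0.29, q = 0.0078), against 30.2% of all genes. For Isg15 (0.44 ± 1.08), Ifit1 (1.98 ± 0.70), Stat2 (-0.67 ± 0.76), Irf1 (-0.09 ± 0.59), Irf7 (-1.25 ± 0.73), H2-K1 (0.34 ± 0.46), H2-D1 (-0.08 ± 0.57) and B2m (-0.22 ± 0.26) the difference did not pass, and the SEs are wide enough that the responses are not shown to be alike.

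Some of the other pathway genes passed under TGFb in both lines as well, against 27.6% of all genes tested in WT and 10.4% in AE. In WT, 3 of 6 receptor chains rose, led by Ifngr2 (1.06 ± 0.15), and 0 of 5 kinases and STATs and 0 of 5 feedback inhibitors passed by edgeR. Of 10 sensing genes 2 fell, Mb21d1 from 27.9 and 24.5 CPM to 5.31 and 3.10 CPM (-2.64 ± 0.45, q = 9e-04) and the kinase Ikbke (-0.92 ± 0.28). Of 25 other interferon-stimulated genes 6 rose and 4 fell. Irgm1 (Entrez 15944), an immunity-related GTPase of cell-autonomous defence, rose from 19.9 and 16.8 CPM to 253 and 190 CPM (3.59 ± 0.31, q = 6.7e-06). Its relative Ifi47 went from 3 counts in both untreated libraries to 459 counts in the treated ones, a ratio of 170 (95% counting interval 57.8 to 828), and Lgals3bp, a secreted glycoprotein, rose from 0.649 and 0.989 CPM to 17.9 and 21.1 CPM (4.57 ± 0.53). Irgm2 (2.09 ± 0.36) and Igtp (1.17 ± 0.28), named after their values were seen, belong to the same GTPase family and rose too. Iigp1, also of that family, did not rise, with 5 counts untreated and 1 treated. In AE Irgm2 was at 2.59 and 1.64 CPM untreated and 1.10 and 1.19 CPM under TGFb. Igtp was at 2.32 and 2.44 CPM against 1.40 and 1.54 CPM there, and neither gene passed in AE. In AE Irgm1 did not pass, at 16.8 and 14.7 CPM untreated and 23.9 and 25.5 CPM treated, and the difference between the lines was -2.94 ± 0.41 (q = 0.00089). Ifi47 rose in AE by 2.10 ± 0.59 and differed by -5.20 ± 0.97 (q = 0.0052).

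Cxcl10, a chemokine that draws T cells, went the other way in AE, from 0.0454 and 0.0727 CPM to 3.77 and 4.01 CPM, 3 against 183 counts and a ratio of 64.2 (95% counting interval 21.6 to 314). In WT it went from 0.879 and 1.74 CPM to 0.393 and 0.179 CPM (-2.18 ± 0.60, q = 0.017). The lines thus differed by 8.07 ± 0.93 (q = 0.00032). Ifi204, which fell by 2.78 ± 0.40 in WT, differed by 4.27 ± 0.60 (q = 0.00086), Ikbke by 1.55 ± 0.39 (q = 0.027) and Il10rb, a chain of the interferon lambda receptor, by -1.11 ± 0.30 (q = 0.039). Of the class II genes 4 of 5 rose in WT, where 14.7% of all genes tested rose. H2-Ab1, a class II beta chain, went from 0 counts to 480 counts, at least 178-fold higher against 3 counts over the untreated group. The remaining tested gene, the transactivator Ciita, did not pass in WT. It went from 27 to 3 counts there, 8.1-fold lower (95% counting interval 2.49 to 41.7). H2-Ab1 rose in AE too, from 1 to 125 counts, a ratio of 132 with a counting interval of 23.2 to 5240. H2-DMb1, a class II peptide editor, rose in WT (2.17 ± 0.37) and fell in AE (-1.46 ± 0.38), a difference of -3.63 ± 0.53 (q = 0.001). Of the other AE counts, 1 of 6 receptor chains (Ifngr2, 0.98 ± 0.15), 1 of 5 kinases and STATs (Jak1, 0.91 ± 0.24) and 4 of 25 other interferon-stimulated genes rose, among them Lgals3bp (2.37 ± 0.46). Of all genes tested 6.09% rose in AE. Leukocyte markers summed to 4.20 to 5.18 CPM in untreated 4-day WT and 6.93 to 8.53 CPM under TGFb, and to 2.76 to 2.82 and 7.71 to 7.89 CPM in AE. Ptprc was at 0 in both AE groups. Of 4 tested leukocyte markers 2 rose in WT, and 0 passed in AE by edgeR, although all 4 had a positive log2 fold change there. Fcer1g went from 0 and 4 counts to 47 and 30 in WT, and from 4 and 17 to 42 and 42 in AE. Fibroblast markers summed to 15.5 to 18.8 CPM untreated and 71.5 to 91.8 CPM under TGFb in WT, and to 254 to 265 and 453 to 490 CPM in AE. Their part in these changes was not tested.

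**Figure D5:**
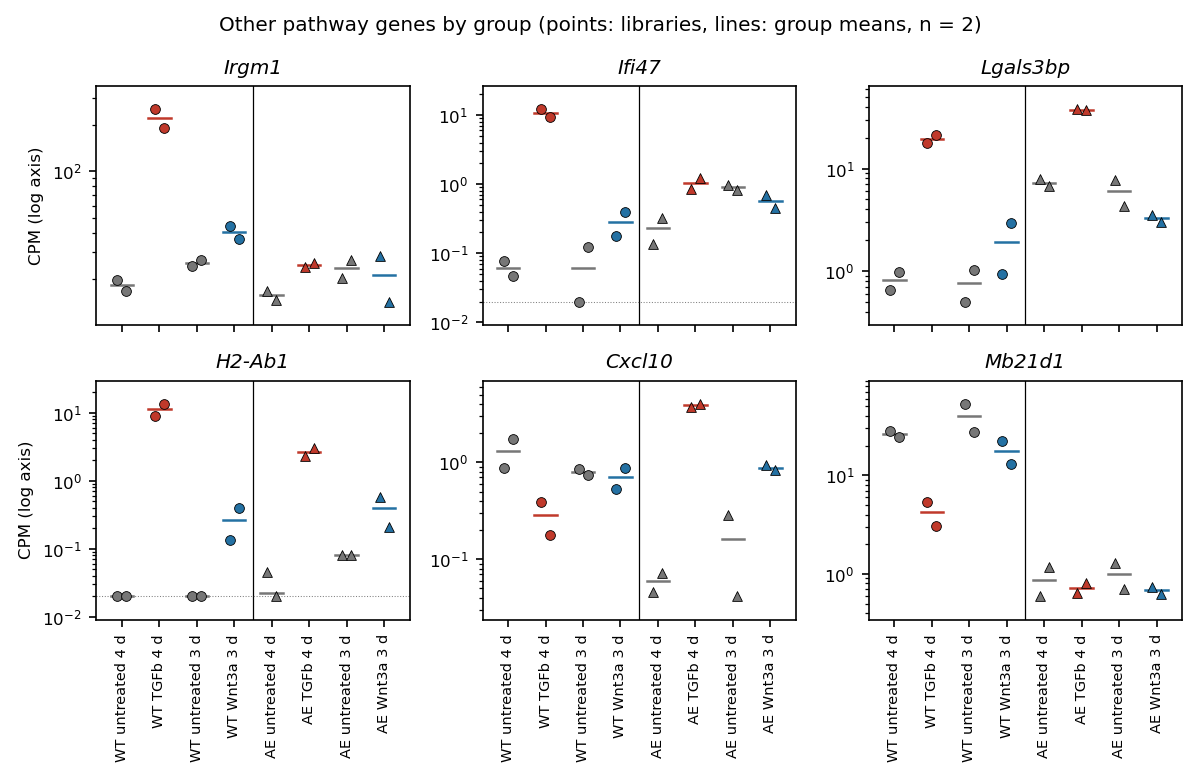
CPM (log axis) of 6 other pathway genes in the 8 groups, with points for libraries (circles WT, triangles AE; grey untreated, red TGFb, blue Wnt3a) and lines for means of 2; values under 0.02, zeros included, are drawn on the dotted line. Irgm1 and Ifi47 are highest in WT under TGFb, Cxcl10 in AE under TGFb, and Mb21d1 is lower in all AE groups.

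Wnt3a changed few members in WT cells. In WT 1 of 8 class I genes rose and none of the 24 interferon-stimulated genes passed by edgeR (3 at an unadjusted p under 0.05; 0 by DESeq2 and 0 by limma), against 4.28% of all genes (2.26% up, 2.02% down). The medians were 0.27 for the interferon-stimulated, 0.40 for the class I and 0.01 for all genes. Tap1 went from 3.48 and 6.78 CPM to 12.6 and 19.7 CPM (1.65 ± 0.36, q = 0.026). Its call was lost without replicate 1 of untreated (1.25) or replicate 2 of treated (1.29) WT cells, and in the 3-day libraries alone, where 0 members and 0.157% of all genes passed by edgeR. Leaving out replicate 2 of untreated or replicate 1 of treated cells instead gave 2 and 5 interferon-stimulated genes and 3 and 2 class I genes. With the replicate number as a block within each line, 2 interferon-stimulated and 2 class I genes passed. H2-K1 was at 95.7 and 154 CPM untreated and 99.8 and 210 CPM treated (0.31 ± 0.32, q = 0.56), and H2-D1 at 82.0 and 153 CPM against 117 and 231 CPM (0.57 ± 0.41, q = 0.41). In both genes replicate 2 was the higher one in each group, and the gap between replicates was wider than that between groups. B2m (0.08 ± 0.19), Isg15 (0.88 ± 0.70), Stat2 (-0.72 ± 0.54), Irf1 (0.15 ± 0.42), Irf7 (0.42 ± 0.59) and Irf9 (0.02 ± 0.23) did not pass. Irf9 turned to -0.01 under median-ratio scaling.

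In AE cells Wnt3a raised 2 and lowered 2 of the 24 interferon-stimulated genes and lowered 1 of 8 class I genes, against 9.33% of all genes (4.59% up, 4.74% down). The medians were -0.26, -0.49 and -0.03 for the interferon-stimulated, class I and all genes. Cmpk2 fell from 2.95 and 4.87 CPM to 0.742 and 0.579 CPM (-2.55 ± 0.40, q = 0.0017). Oasl2 rose from 0.890 and 0.784 CPM to 2.50 and 2.23 CPM (1.49 ± 0.30, q = 0.0077), and Ifi44 from 0.121 and 0.165 CPM to 0.938 and 0.538 CPM (2.33 ± 0.54, q = 0.017). Oasl2, Ifi44 and Cmpk2 are also the 3 members that passed in AE under TGFb, each in the same direction, with other untreated libraries as controls. Irf9 went from 20.4 and 25.9 CPM to 12.7 and 13.8 CPM (-0.81 ± 0.22, q = 0.042). Psmb8 went from 4.16 and 2.35 CPM to 1.17 and 1.12 CPM (-1.51 ± 0.42, q = 0.042). Psmb9 (-1.98 ± 0.58, q = 0.053), Tapbp (-0.87 ± 0.26, q = 0.057) and Tap2 (-1.94 ± 0.73, q = 0.14) did not pass, although the treated libraries of each lay below the untreated ones. Tap1, whose start site faces the same stretch as that of Psmb9, was level, at 16.6 and 11.5 CPM against 12.4 and 15.2 CPM (-0.03 ± 0.35, q = 0.98). H2-K1 (-0.11 ± 0.32), H2-D1 (0.04 ± 0.41), B2m (0.24 ± 0.19), Stat2 (0.06 ± 0.54), Irf1 (-0.05 ± 0.42), Irf7 (-1.01 ± 0.50) and Isg15 (-0.82 ± 0.81) did not pass. With the 3-day libraries alone only Cmpk2 of all members passed (q = 0.046), against 2.8% of all genes. The calls were lost without replicate 2 of untreated or either replicate of treated cells for Irf9, without replicate 1 of untreated or either of treated for Psmb8, without replicate 1 of treated for Oasl2, and without either untreated library or replicate 1 of treated for Ifi44. The count of class I genes ran from 0 to 2 over the libraries left out, the 2 without replicate 2 of untreated cells.

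The difference between the lines in the Wnt3a change passed for Oasl2 (1.83 ± 0.42, q = 0.043) among 24 interferon-stimulated genes and for Psmb9 (-4.42 ± 0.97, q = 0.038) among 8 class I genes, against 2.34% of all genes (1.18% higher, 1.16% lower). Psmb9 went from 0 and 0.164 CPM to 0.268 and 0.740 CPM in WT and from 1.5 and 1.24 CPM to 0.313 and 0.372 CPM in AE. The WT change rests on few reads, and the call was lost without any of 6 of the 8 libraries. The Oasl2 call was lost without any of 5, and neither passed in the 3-day libraries alone (0 members and 0.0628% of all genes by edgeR). Without replicate 2 of untreated or replicate 1 of treated WT cells, 3 and 5 interferon-stimulated genes and 3 class I genes passed instead. For Isg15 (-1.71 ± 1.07), Irf9 (-0.83 ± 0.32), Irf7 (-1.43 ± 0.78), Stat2 (0.78 ± 0.76), Irf1 (-0.20 ± 0.59), H2-K1 (-0.42 ± 0.46), H2-D1 (-0.52 ± 0.57) and B2m (0.16 ± 0.26) the difference did not pass. Of the other pathway genes Stat3 (-0.92 ± 0.23) and Ifi204 (-1.70 ± 0.38) fell in WT, and none rose by edgeR. In AE Cxcl10 rose (2.40 ± 0.64), while the GTPases Iigp1 (-2.68 ± 0.57), Irgm2 (-1.56 ± 0.35) and Igtp (-1.34 ± 0.28, named after its values were seen) fell, as did Il10rb (-0.78 ± 0.21), the peptide-trimming enzyme Erap1 (-1.03 ± 0.29) and H2-DMb1 (-1.86 ± 0.37), the last with a difference between the lines of -3.12 ± 0.55 (q = 0.013).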

How the data were processed

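The 16 libraries were stranded poly(A) RNA libraries (TruSeq) read as single reads on a NextSeq, per the labels' protocols. Per the submitters' processing notes, STAR and the mm10 build were used (no version, counter, strand setting or annotation is named). The deposited table is named for CPM but holds whole-number counts per Entrez gene ID, which the authors left unnormalized, so a count test was used. RefSeq's GRCm38.p6 gene table named 19613 of 19665 IDs. Overlapping genes, and the paralogs among the Ifit, Oas, Ifi200, Gbp, Irgm and H2 genes, may share reads.

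Genes with at least 1 CPM in at least 2 libraries were kept (13172). edgeR 4.0.16 (R 4.3.3) fitted 1 quasi-likelihood model with 8 group means after TMM scaling, with 8 residual degrees of freedom, and p-values were adjusted by Benjamini and Hochberg over all genes tested. The SE is the log2 fold change divided by the square root of F. The untreated lines were compared over both times with equal weight. Alternatives were other scalings, filters, DESeq2 1.42.0, limma 3.58.1 on log2(CPM + 1), fewer groups, replicate blocks and leaving out each library; fits of 1 experiment alone and a crossed block were added after seeing the data. All passing members were named, more than the 12 with the largest fold change that the rule for named genes asked for, and H2-K1, H2-D1, B2m, Nlrc5, Irf1, Irf7, Irf9, Stat2 and Isg15 were named in any case. Of each other pathway list at most 3 passing genes whose mean reached 1 CPM in a group were named for a comparison. They were those with the largest fold change. Irgm2, Igtp, the line difference of Irgm1, and the WT values of Cxcl10, Ifi204 and Iigp1 under TGFb were added after their values were seen. Replicate numbers, taken from the labels, went with shared deviations from the group means within WT (correlations 0.592 to 0.756) but not throughout AE (-0.123 to 0.417) or between the lines (-0.656 to 0.0379). The members and lists were chosen with earlier results of these data known. Ratios from 3 or fewer counts carry exact 95% intervals, and these and the floor of 3 counts cover counting error only.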

Additional observations from a re-analysis of the deposited data

Results flagged for a closer look

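In 5 of 64 checks of a member in the 4 untreated libraries of a line, 1 library stood apart from the other 3. Its gap was wider than Dixon's 95% limit for 4 values. That limit gives about 1 in 20 for like, independent values. The rate cannot be applied here, because the checks share libraries and each joins 2 experiments of unlike spread. The SD between replicates was 0.309 at 4 days and 0.81 at 3 days in untreated WT, and 0.208 and 0.698 in untreated AE. In WT these were replicate 1 of the 3-day libraries for Ifih1, a sensor of double-stranded RNA, at 14.1 CPM, and for Psmb9 at 0 CPM. In AE they were replicate 1 of the 3-day libraries for Irf7 at 3.11 CPM and for H2-D1 at 214 CPM, and replicate 2 of the 3-day libraries for Cmpk2 at 4.87 CPM. All 5 were 3-day libraries, the experiment with the wider spread between replicates.

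The TGFb change differed between the lines, AE minus WT and adjusted over all genes by edgeR, for these genes among others. On the log2 scale the differences were -1.98 for Irf9, 2.53 for Oasl2 and 1.35 for Gbp2 among the members. Among the other pathway genes they were 8.07 for Cxcl10, 4.27 for Ifi204, 1.55 for Ikbke, -5.20 for Ifi47, -3.63 for H2-DMb1 and -1.11 for Il10rb. The Wnt3a change differed by 1.83 for Oasl2, by -4.42 for Psmb9 and by -3.12 for H2-DMb1. With 1 line per genotype these are differences between the lines.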

How the results depend on the processing

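No member's call was reversed under any alternative run. Counts of passing genes are given as interferon-stimulated, then class I. Leaving out 1 library gave 6 to 7 and 1 for TGFb in WT (12 and 2 with all libraries), 1 to 2 and 0 for TGFb in AE (3 and 0), 0 to 5 and 0 to 3 for Wnt3a in WT (0 and 1), 1 to 4 and 0 to 2 for Wnt3a in AE (4 and 1), 11 to 16 and 6 between the untreated lines (16 and 6), 2 and 0 for the TGFb difference (3 and 0), and 0 to 5 and 0 to 3 for the Wnt3a difference (1 and 1). With the libraries of 1 experiment alone the counts were 20 and 5, 7 and 3, 0 and 0, and 1 and 0 for the same 4 treatment comparisons, 8 and 3 for the TGFb difference and 0 and 0 for the Wnt3a difference. With only the groups compared they were 11 and 5 for TGFb in AE, 1 and 0 for Wnt3a in AE, 8 and 3 for the TGFb difference, 0 and 0 for the Wnt3a difference, and 0 class I genes for Wnt3a in WT. A minimum of 5 CPM, which leaves fewer members to test, gave 7 interferon-stimulated genes for TGFb in WT, 1 for TGFb in AE, 8 between the lines, 2 and 0 for Wnt3a in AE and 0 and 0 for the Wnt3a difference. limma gave 5 and 1 for the TGFb difference, 1 class I gene for TGFb in AE, 2 for Wnt3a in AE, and 2 interferon-stimulated genes for the Wnt3a difference. DESeq2 gave 5 interferon-stimulated genes for the TGFb difference, and 3 and 2 class I genes for Wnt3a in AE and the Wnt3a difference. Total-count scaling and no filter each gave 0 class I genes for Wnt3a in AE and 0 interferon-stimulated genes for the Wnt3a difference. The 3-day untreated libraries alone gave 10 interferon-stimulated genes between the lines. The cause of these shifts was not tested.

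Same-numbered libraries deviated together within WT, but not throughout AE or between the lines. The replicate block over all libraries gave 0 interferon-stimulated genes for the Wnt3a difference. The replicate block within each line gave 2 and 2 for Wnt3a in WT, 4 class I genes for Wnt3a in AE, 5 and 1 for the TGFb difference and 2 and 3 for the Wnt3a difference, and between the untreated lines it left 16 and 6. The replicate block crossed between the lines, chosen after seeing the data, gave 1 interferon-stimulated gene for Wnt3a in WT, 4 class I genes for Wnt3a in AE, 5 and 1 for the TGFb difference and 2 class I genes for the Wnt3a difference. Depth limits Psmb8 and Psmb9 in WT, the Mx and Oas genes and the interferon genes most, where a library holds few reads.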
